A study of Mus musculus with 13 samples.

Results

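The 10 genes described here encode parts of the blood-brain barrier, the wall that endothelial cells form around the capillaries of the brain. They were taken as a list of names, matched by symbol to the deposited table of 37636 gene IDs, and all 10 were found, each in 1 row. All 10 reached the mean of 1 FPKM (fragments scaled to the gene's length and to the library's mapped fragments) required for a test, among 13905 genes that did. The mice were male, of the Balb/c strain and 6 to 8 weeks old, and the labels say only that the tissue was brain, with no region. The groups were the normal condition without 6-OHG (Con, 4 libraries), 8000 m for 24 h without 6-OHG (Mod, 5 libraries), and the same altitude and time with 6-OHG (4 libraries). 6-OHG is a compound given only by this code, with no dose or route. How the altitude was produced is not given in the sources used here.

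Endothelial cells of the brain are joined by tight junctions, take up little by vesicles, and carry nutrients inward and drugs outward through dedicated transporters. Slco1a4 and Slco1c1 encode organic anion transporters, the latter a carrier of thyroid hormone that astrocytes also express. Slc7a5 carries large neutral amino acids, and Mfsd2a carries lysophospholipids with omega-3 fatty acids and restrains vesicle transport. Abcb1a and Abcg2 encode pumps that return drugs to the blood. Cldn5 and Ocln span the membrane at tight junctions, and Tjp1 encodes the scaffold beneath them. Itm2a encodes a membrane protein that is rich in brain endothelium.

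The FPKM columns summed to between 268208 and 312908, with 20.6% to 28.7% of the sum from mitochondrial genes. Totals of reads are not given, so counting error is unknown. The labels do not state whether each library is a separate animal, so the spread behind every p-value here may be technical. Endothelial identity was checked on a list of 22 general endothelial markers, of which none was at 0 throughout a group and 20 were tested. These summed to 78.9 to 95.4 FPKM in Con, 88.6 to 110.7 in Mod and 83.3 to 112.7 in 6-OHG. Whole brain tissue holds all cell types, and in such data fewer cells of a type and less RNA per cell cannot be told apart. The libraries least like their own groups were Con replicate 4 and 6-OHG replicate 2. Liver transcripts reached 42.6 to 58.9 FPKM in Con, and of the Mod libraries replicate 3 held 40.2 while the remaining 4 held 0.454 to 1.39. In 6-OHG they summed to 0.722 to 0.891.

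Levels are FPKM, which are per length and so can be set side by side between genes. In Con the order by mean was Itm2a (30.6), Cldn5 (16.0), Tjp1 (11.9), Slco1c1 (11.4), Slc7a5 (10.4), Slco1a4 (8.30), Mfsd2a (7.24), Abcb1a (4.94), Ocln (1.81) and Abcg2 (1.69). The ranges of neighbours overlapped for Tjp1 and Slco1c1, Slco1c1 and Slc7a5, Slco1a4 and Mfsd2a, and Ocln and Abcg2. In Mod the order was Cldn5 (26.7), Mfsd2a (14.0), Tjp1 (10.7), Slc7a5 (9.64), Itm2a (7.07), Slco1c1 (5.70), Abcb1a (3.30), Slco1a4 (2.90), Abcg2 (1.48) and Ocln (1.46). Cldn5 and Mfsd2a thus held ranks 1 and 2 in Mod, without overlap with each other or with Tjp1. The ranges of neighbours overlapped from Tjp1 down to Slco1c1, for Abcb1a and Slco1a4, and for Abcg2 and Ocln. With 6-OHG the ranks were those of Mod except that Ocln (1.93) stood above Abcg2 (1.67), and the ranges of neighbours overlapped from Mfsd2a down to Slc7a5, from Itm2a down to Slco1a4, and for Ocln and Abcg2.

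Exposure to altitude was the question of the first comparison, Mod against Con. The barrier genes moved in both directions. Itm2a, Slco1a4, Slco1c1 and Abcb1a fell, Cldn5 and Mfsd2a rose, and Slc7a5, Abcg2, Ocln and Tjp1 did not pass the test. Each change is the mean of log2(FPKM + 1) in one group less that in the other, which makes folds of low genes look smaller than they are. A gene rose or fell when its p in limma, adjusted over all 13905 genes, was under 0.05. By that rule 6 of the 10 genes were called, 2 higher and 4 lower, against 23.8% of all tested genes called, 14.0% higher and 9.81% lower. The 10 genes were chosen with earlier results of these data known, so such counts beside all tested genes describe the list and do not test it. Of the genes called among all tested, 58.7% were higher with the values as deposited, 49.0% after median-of-ratios scaling and 40.5% with FPKM rescaled to equal sums. The directions of the 10 barrier genes were the same under each of these scalings. The median log2 change of the 10 was -0.17, against 0.01 over all tested genes.

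**Figure D1:**
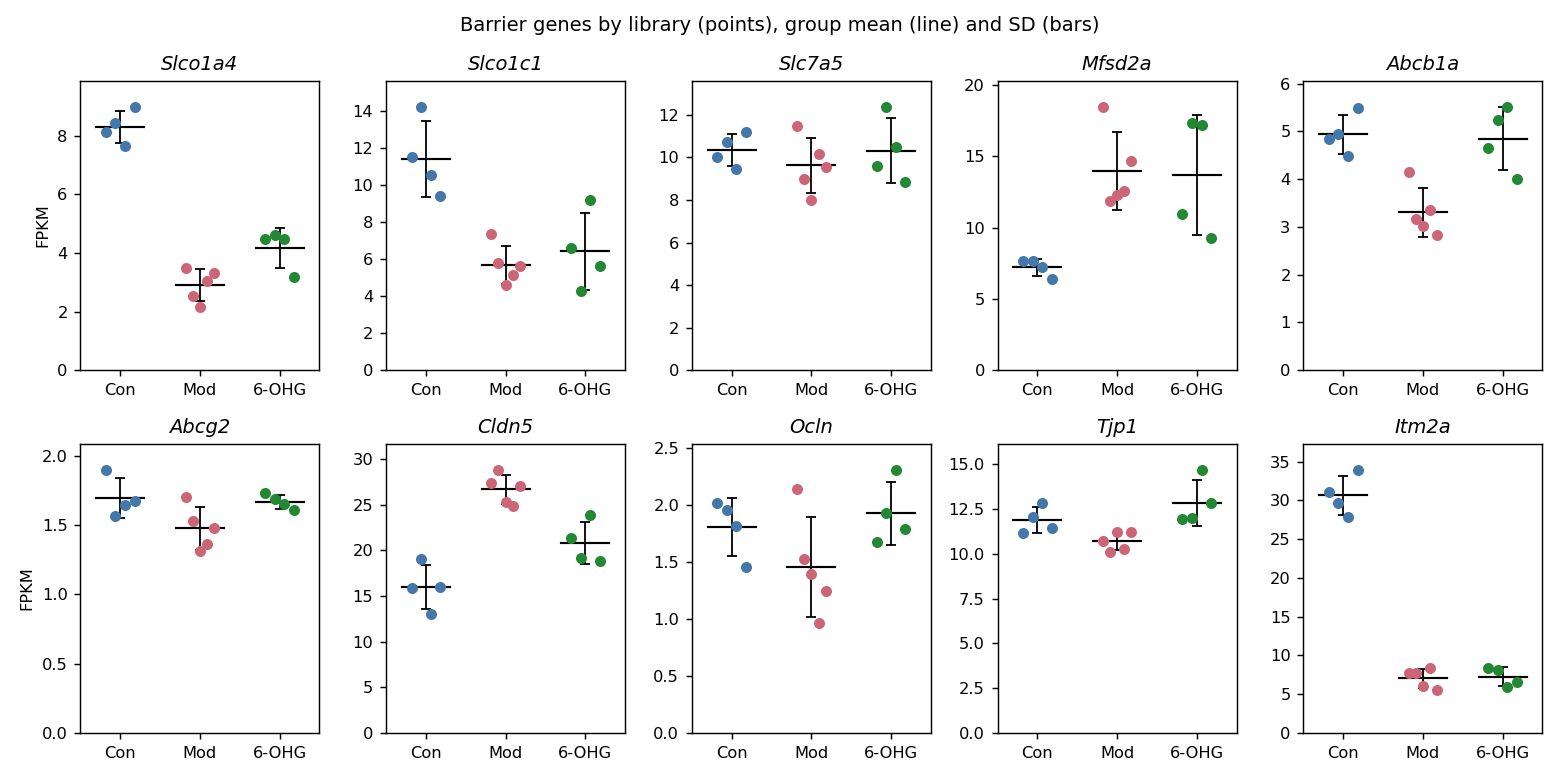
FPKM (vertical axes, each starting at 0) of the 10 barrier genes in Con, Mod and 6-OHG, with 1 point per library, a line at the group mean and bars for the SD. Itm2a, Slco1a4 and Slco1c1 lie lower in all Mod and 6-OHG libraries than in any Con library, and Mfsd2a lies higher.

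The organic anion transporters fell. Slco1a4 stood at 8.12, 8.44, 7.66 and 8.97 FPKM in Con replicates 1 to 4 and at 3.48, 2.55, 2.15, 3.04 and 3.31 in Mod replicates 1 to 5. Every Mod library was below every Con library, and the mean was 2.86 times lower, 2.90 ± 0.549 (SD, n = 5) against 8.30 ± 0.553 (SD, n = 4). Its log2 change was -1.26 with an SE of 0.11 (adjusted p = 1.34e-05 in limma). Slco1a4 is also a gene of liver, and liver transcripts were far lower in 4 of 5 Mod libraries than in Con. Mod replicate 3, where they were near the level of Con, had the lowest Slco1a4 of all. The change without that library was -1.19. The part of liver transcripts in the change was not tested. Its neighbours of the same family, Slco1a1, Slco1a5 and Slco1a6, had means of at most 0.0711 FPKM in each group.

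Slco1c1 stood at 11.5, 14.2, 10.5 and 9.41 FPKM in Con and at 7.33, 5.81, 4.58, 5.14 and 5.61 in Mod. The groups did not overlap, and the mean was 2.00 times lower in Mod (log2 change -0.89, SE 0.17, adjusted p = 0.00301 in limma). Choroid plexus, which also expresses Slco1c1, differed widely between libraries. The 12 choroid plexus markers, of which 4 were tested and 1 fell, summed to 703.7 FPKM in Con replicate 2 and 285.7 to 341.1 in the remaining 3 of Con. Mod replicate 4 had 49.3, and its group was otherwise at 222.2 to 255.6. Most of each of these sums came from Ttr alone, at 685.7 FPKM in Con replicate 2 and 43.5 in Mod replicate 4. Con replicate 2 also had the highest Slco1c1, whereas Mod replicate 4 lay within the range of the other Mod libraries. The part of choroid plexus in the change was not tested. Of 12 astrocyte markers 1 rose and 2 fell, and their sums overlapped, at 533.3 to 646.3 FPKM in Con and 537.1 to 641.8 in Mod.

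The other carriers differed from these. Slc7a5 did not pass and Mfsd2a rose. Slc7a5 ranged from 9.44 to 11.2 FPKM in Con, with a median of 10.4, and from 8.02 to 11.5 in Mod, with a median of 9.54. Its log2 change was -0.10, with a 95% interval of -0.32 to 0.12. Mfsd2a stood at 7.63, 7.70, 7.23 and 6.40 FPKM in Con and at 18.4, 11.9, 12.3, 12.5 and 14.7 in Mod. All 5 Mod libraries were above all Con libraries, with replicate 1 the highest, and the mean was 1.93 times higher (log2 change 0.85, SE 0.17, adjusted p = 0.00400 in limma).

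Of the efflux pumps, Abcb1a fell. Its values were 4.85, 4.94, 4.49 and 5.48 FPKM in Con and 4.15, 3.17, 3.02, 3.35 and 2.83 in Mod, without overlap. The log2 change was -0.47 with an SE of 0.10 (adjusted p = 0.00407 in limma). Abcb1b, the close copy of Abcb1a that encodes a second P-glycoprotein, had means below the level required for a test in every group, 0.394 ± 0.0449 FPKM (SD, n = 4) in Con and 0.692 ± 0.0456 (SD, n = 5) in Mod. Its Mod libraries (0.622 to 0.748) lay above its Con libraries (0.332 to 0.433), the opposite order to that of Abcb1a. In a fit without the filter on low values its log2 change was 0.28 and did not pass (adjusted p = 0.0878 in limma). How reads shared by the copies were assigned is not stated, so both values are uncertain to that extent. Abcg2 was at 1.69 ± 0.142 FPKM (SD, n = 4) in Con and 1.48 ± 0.154 (SD, n = 5) in Mod, with overlapping ranges and a log2 change of -0.12 (95% interval -0.27 to 0.02).

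At the junctions, Cldn5 rose and the other members did not pass. Cldn5 stood at 15.9, 19.0, 13.0 and 16.0 FPKM in Con and at 27.4, 28.8, 25.3, 24.9 and 27.1 in Mod. The lowest Mod library was above the highest Con library, and the mean was 1.67 times higher (log2 change 0.71, SE 0.10, adjusted p = 0.000280 in limma). Tjp1 was at 11.9 ± 0.740 FPKM (SD, n = 4) in Con and 10.7 ± 0.520 (SD, n = 5) in Mod, a log2 change of -0.14 with a 95% interval of -0.28 to 0.00. Ocln ranged from 1.46 to 2.02 FPKM in Con and from 0.968 to 2.15 in Mod, where replicate 1 was the highest and replicate 4 the lowest. Its log2 change was -0.21, with a 95% interval of -0.47 to 0.06.

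Itm2a had the largest change of the 10 genes. Con libraries held 31.1, 29.7, 27.9 and 33.9 FPKM, and Mod libraries held 7.68, 7.74, 6.00, 8.40 and 5.54. The gap between the groups was wider than the spread within either, and the mean was 4.33 times lower in Mod (log2 change -1.98, SE 0.12, adjusted p = 6.68e-07 in limma). For the 6 genes called, the groups did not overlap, which was so for 22.4% of all tested genes. These same 6 genes were called without each library in turn and without both libraries least like their groups.

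The upstream sequences of Mfsd2a and Cldn5, which rose, and of Itm2a and Slco1a4, which had the largest falls, are shown because they let the genes that moved apart be compared at their start sites. They are the 250 bases before the start given by RefSeq on GRCm38.p6, read along the gene. RefSeq windows were to hand for 9 of the 10 genes. Capitals mark matches, on either strand, to ACGTG or GCGTG (cores bound by the hypoxia-inducible factors), CTTTGAT (TCF/LEF factors of Wnt signalling), AGAACA (a half-site of the glucocorticoid receptor), CCGGAA (ETS factors) or GTAAACA (forkhead factors).
Mfsd2a, chr4:122961189-122961438, minus strand: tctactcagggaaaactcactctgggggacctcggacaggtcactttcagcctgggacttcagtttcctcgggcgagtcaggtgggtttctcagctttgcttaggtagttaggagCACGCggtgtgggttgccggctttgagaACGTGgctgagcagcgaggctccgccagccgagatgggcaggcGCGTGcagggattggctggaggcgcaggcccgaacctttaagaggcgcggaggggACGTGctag
Cldn5, chr16:18776597-18776846, plus strand: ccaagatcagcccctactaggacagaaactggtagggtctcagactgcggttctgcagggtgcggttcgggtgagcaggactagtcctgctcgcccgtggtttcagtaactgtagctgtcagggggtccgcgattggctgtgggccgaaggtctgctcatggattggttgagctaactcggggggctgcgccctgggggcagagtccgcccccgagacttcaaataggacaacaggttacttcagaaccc
Itm2a, chrX:107403361-107403610, minus strand: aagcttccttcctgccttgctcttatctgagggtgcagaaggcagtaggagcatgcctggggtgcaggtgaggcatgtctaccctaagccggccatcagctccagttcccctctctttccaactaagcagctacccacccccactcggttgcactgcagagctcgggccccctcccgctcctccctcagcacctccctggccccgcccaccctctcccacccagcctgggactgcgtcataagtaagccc
Slco1a4, chr6:141856221-141856470, minus strand: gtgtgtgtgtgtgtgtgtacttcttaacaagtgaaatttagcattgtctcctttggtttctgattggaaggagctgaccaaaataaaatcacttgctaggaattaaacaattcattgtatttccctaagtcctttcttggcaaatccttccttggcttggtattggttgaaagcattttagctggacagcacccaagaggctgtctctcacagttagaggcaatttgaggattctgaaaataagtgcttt
The Mfsd2a window held 4 of the hypoxia cores, 2 spelled ACGTG and 2 spelled GCGTG. Among 32817 windows of the same length, 38.6% held at least 1 such core and 2.58% held at least 4. The latter share was computed only for Mfsd2a, the member with the most cores. The windows were not matched for base composition, so the share is a description and no test. The other 3 windows shown held none of the letters searched. Among members not shown, Ocln, which did not pass, held GCGTG in each of its windows, beside a CCGGAA. The RefSeq window of Abcb1a, which fell, held GTAAACA. That window (chr5:8566841-8567090) lies far upstream of the GENCODE start of the gene at 8660077, so the match is not at that start. Over all windows ACGTG was found in 16.6%, GCGTG in 28.1%, CTTTGAT in 3.21%, AGAACA in 16.1%, CCGGAA in 12.0% and GTAAACA in 3.16%, where a match such as CACGTG can count on both strands. A match of letters shows no binding, and a window without one says nothing of the factor.

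The ratio of 2 genes within a library does not depend on the factor by which the library was scaled. It can still carry a library's dependence on gene length and base composition. In these Cldn5 (1416 bases, 60.5% G or C) differs from genes such as Slco1a4 (6414 bases, 40.3%). The FPKM of Slco1a4 was 0.443 to 0.588 of that of Cldn5 in Con and 0.0851 to 0.127 in Mod. The ratio of Itm2a to Cldn5 was 1.56 to 2.14 in Con and 0.205 to 0.338 in Mod, so that Itm2a stood above Cldn5 in every Con library and below it in every Mod library. Slco1c1 went from 0.589 to 0.809 of Cldn5 in Con to 0.181 to 0.267 in Mod, and Abcb1a from 0.260 to 0.345 to 0.104 to 0.151. Mfsd2a kept overlapping ratios, 0.401 to 0.555 in Con and 0.413 to 0.673 in Mod. Pecam1 and Cdh5, adhesion genes of all endothelium, also overlapped, at 0.157 to 0.218 and 0.209 to 0.253 for Pecam1 and 0.144 to 0.222 and 0.177 to 0.256 for Cdh5. With 6-OHG they lay above all Con libraries, at 0.2365 to 0.2798 for Pecam1 and 0.2328 to 0.2856 for Cdh5. Both are among the 10 of 20 tested endothelial markers that rose in Mod, while 4 fell. No marker that fell was set against Cldn5, so the ratios do not stand for endothelial genes at large. These ratios show unequal change of the genes compared and were not tested.

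**Figure D2:**
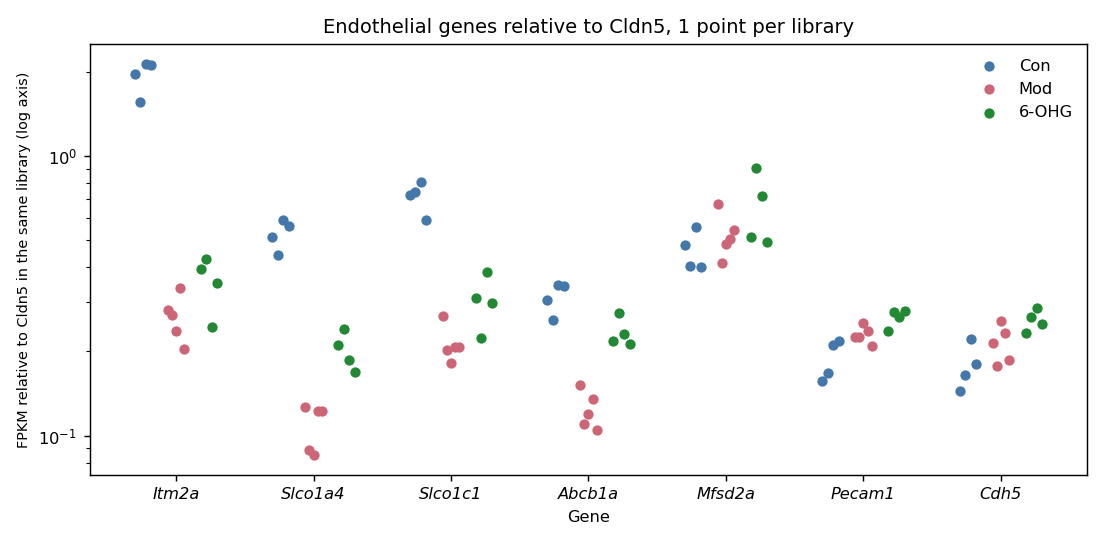
FPKM of 7 endothelial genes divided by that of Cldn5 in the same library (vertical log axis), with 1 point per library of Con, Mod and 6-OHG. For Itm2a, Slco1a4, Slco1c1 and Abcb1a the Con libraries lie above the Mod libraries, and for Mfsd2a, Pecam1 and Cdh5 the ranges of Con and Mod overlap.

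In the further lists of barrier genes, members were called in both directions, and their counts are to be read against the 14.0% of all tested genes called higher and the 9.81% called lower. Of 17 further carriers, 13 were tested, 1 rose and 4 fell, with a median log2 change of -0.14. Slc2a1, the glucose carrier of the barrier, rose from 19.8 ± 1.63 to 34.7 ± 3.35 FPKM (log2 change 0.78). Slc22a8, an organic anion transporter, fell from 4.61 ± 0.247 to 2.11 ± 0.521 FPKM (-0.86), the amino acid carrier gene Slc38a3 by 0.62 and the zinc carrier gene Slc39a10 by 0.78. Slc3a2, the partner chain of Slc7a5, stood at 19.7 ± 0.971 and 20.9 ± 1.85 FPKM. Of 7 further efflux genes 4 were tested and 1, the cholesterol exporter gene Abca1, rose (0.54).

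Of 18 further junction genes 15 were tested, 3 rose and 2 fell, with a median of 0.00. Esam (1.03), Pecam1 (0.85) and Cdh5 (0.81), adhesion molecules of endothelium, rose, while Jam2 fell by 0.41 and the scaffold gene Afdn by 0.18. The call of Afdn lay at the threshold (adjusted p = 0.0498 in limma). Those 3 risers are also among the endothelial markers, of which 10 of 20 tested rose and 4 fell, with a median of 0.39. The markers that fell were the phospholipid transfer gene Pltp (-1.15), the angiopoietin receptor gene Tek (-0.94), Ptprb (-0.52) and Podxl (-0.33), the last pair named after their values were seen.

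Among 11 genes of vesicle transport 10 were tested, 2 rose and 1 fell, with a median of 0.04. The transferrin receptor gene Tfrc rose by 0.74 and Insr, the insulin receptor gene, by 0.28, while Lrp1 fell by 0.35. Of 21 genes of the Wnt signalling that induces the barrier, 17 were tested, 3 rose and 2 fell, with a median of -0.09. The ligand genes Wnt7a and Wnt7b fell, from 3.49 ± 0.295 to 1.59 ± 0.276 FPKM (-0.80) and from 5.50 ± 0.681 to 2.94 ± 0.428 FPKM (-0.72). Reck, the coreceptor for these ligands, rose by 0.43, and the transcription factor gene Foxf2 rose by 0.45.

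**Figure D3:**
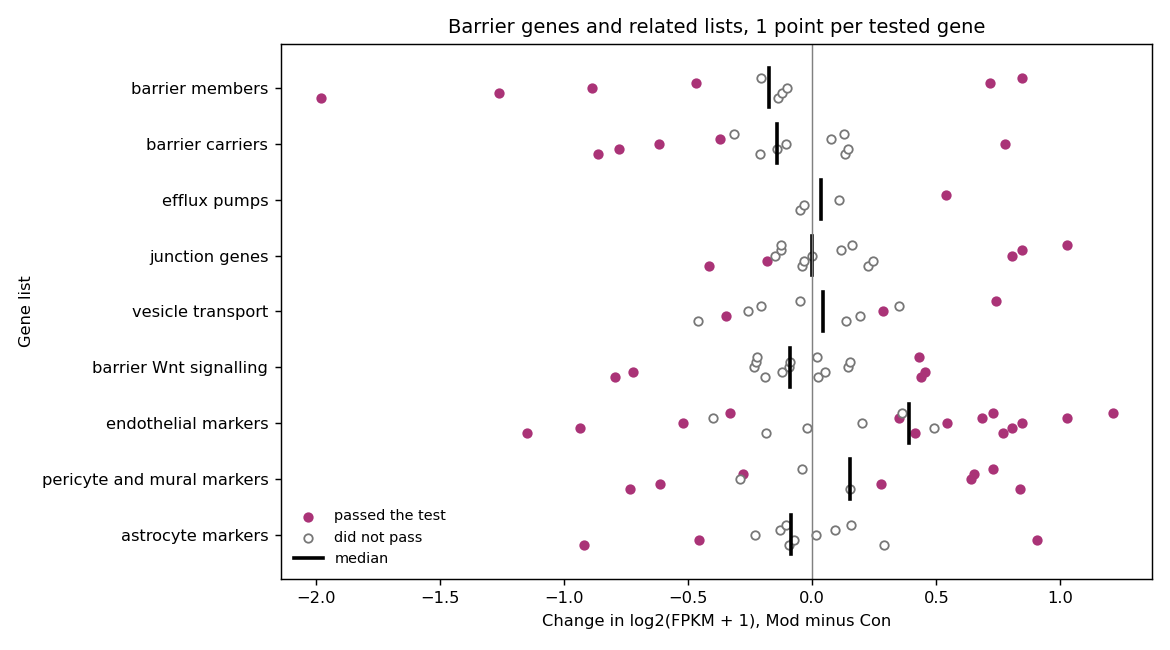
Change in log2(FPKM + 1) between Mod and Con (horizontal axis) for each tested gene of the barrier and related lists (vertical axis), with a bar at each list's median. Filled points passed the test, and the barrier members reach from -1.98 for Itm2a to 0.85 for Mfsd2a.

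6-OHG in exposed mice was the question of the second comparison, 6-OHG against Mod, which shares the Mod libraries with the first. Of the 10 genes 3 were called higher and 1 lower, against 6.98% and 8.35% of all tested genes (15.3% in either direction). Abcb1a, Slco1a4 and Tjp1 were higher with 6-OHG than in Mod, and Cldn5 was lower. The median log2 change of the 10 was 0.11, against -0.02 over all tested genes. Transcripts of blood cells, which vessels hold, summed to 108.8 to 520.1 FPKM in Mod and 40.9 to 175.5 with 6-OHG. Of these 5 transcripts 1 passed the test (lower), and their median log2 change was -1.30. Their part in the changes of vessel genes was not tested. Of all genes called, 45.5% were higher as deposited, 57.5% after quantile normalization and 77.7% with FPKM rescaled to equal sums. When each library was first corrected for its dependence on gene length and base composition (GC), 0 of the 10 genes were called, with adjusted p from limma of 0.0504 for Abcb1a, 0.151 for Slco1a4, 0.286 for Cldn5 and 0.307 for Tjp1. The log2 changes in that fit were 0.36 for Abcb1a (0.44 without the correction), 0.29 for Slco1a4 (0.41), -0.15 for Cldn5 (-0.35) and 0.12 for Tjp1 (0.24). At an unadjusted p under 0.05 that fit gave 2 of the 10, Abcb1a and Slco1a4.

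Abcb1a stood at 4.64, 5.24, 5.50 and 4.01 FPKM with 6-OHG, against 2.83 to 4.15 in Mod. Only 6-OHG replicate 4 lay within the Mod range, below Mod replicate 1, and the mean of 4.85 ± 0.665 (SD, n = 4) was 1.47 times that of Mod (log2 change 0.44, SE 0.10, adjusted p = 0.00960 in limma). Where Abcb1a was tested, this call ended with the length and GC trend removed, with the replicate number as a block in the fit, and with both. Abcb1b was at 0.941, 1.26, 0.606 and 0.688 FPKM with 6-OHG, which overlapped Mod, and its change in the unfiltered fit was 0.14 (adjusted p = 0.553 in limma). Slco1a4 stood at 4.48, 4.60, 4.47 and 3.17 FPKM, so that 3 of 4 libraries lay above all Mod libraries. The mean was 1.44 times higher than in Mod (log2 change 0.41, SE 0.11, adjusted p = 0.0279 in limma). This call ended without Mod replicate 2 (adjusted p = 0.0639 in limma) or 3 (0.0594), and without 6-OHG replicate 1 (0.0734), 2 (0.0607) or 3 (0.0721). It also ended with only the compared groups in the fit (0.0561) and without the filter on low values (0.0753), where Tjp1 (0.0543) did not pass either.

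Cldn5 stood at 21.3, 19.1, 23.9 and 18.9 FPKM with 6-OHG, all below the lowest Mod library at 24.9. The mean was 20.8 ± 2.35 (SD, n = 4) and the log2 change -0.35 (SE 0.10, adjusted p = 0.0286 in limma). Its call ended without Mod replicate 1 (adjusted p = 0.0590 in limma), 2 (0.0654) or 5 (0.0556), without 6-OHG replicate 1 (0.0526), 2 (0.0617) or 4 (0.0851), with FPKM rescaled to equal sums (0.0827), after quantile normalization (0.0533) and without the filter on low values (0.0713). Tjp1 stood at 11.9, 12.0, 14.7 and 12.9 FPKM, all above the highest Mod library at 11.2, with a log2 change of 0.24 (SE 0.07, adjusted p = 0.0275 in limma). Its call ended without Mod replicate 1 (adjusted p = 0.0527 in limma), 2 (0.0644) or 4 (0.0516) and without 6-OHG replicate 3 (0.0730) or 4 (0.0646). Without both libraries least like their groups, Slco1a4 (adjusted p = 0.0565 in limma) and Cldn5 (0.0599) did not pass, and Abcb1a and Tjp1 did. For Cldn5 and Tjp1, 2 of the 10 genes, the groups did not overlap, against 15.9% of all tested genes.

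The other 6 genes did not pass. Itm2a stood at 8.42, 8.16, 5.87 and 6.62 FPKM with 6-OHG, within or close to the Mod range, with a log2 change of 0.04 (95% interval -0.23 to 0.30). Mfsd2a was split among the 6-OHG libraries, with 17.4 and 17.2 FPKM in replicates 2 and 3 and 11.0 and 9.30 in replicates 1 and 4 (log2 change -0.05, 95% interval -0.43 to 0.32). Slco1c1 was likewise uneven, at 6.59, 4.27, 9.20 and 5.60 FPKM (0.12, 95% interval -0.26 to 0.49). Choroid plexus markers summed to 47.3, 6.20, 306.7 and 364.9 FPKM in the same libraries, of which Ttr alone gave 43.8, 1.67, 298.6 and 353.0. Replicate 2 was the lowest in Slco1c1 and in the summed markers. Replicate 3, the highest in Slco1c1, was not the highest in these markers. Their part in the spread of Slco1c1 was not tested. The changes of Ocln (0.27, 95% interval 0.00 to 0.53), Abcg2 (0.11, -0.03 to 0.25) and Slc7a5 (0.09, -0.13 to 0.31) did not pass. Among the libraries left out in turn, Ocln passed only without Mod replicate 1 (0.36, adjusted p = 0.0434 in limma).

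**Figure D4:**
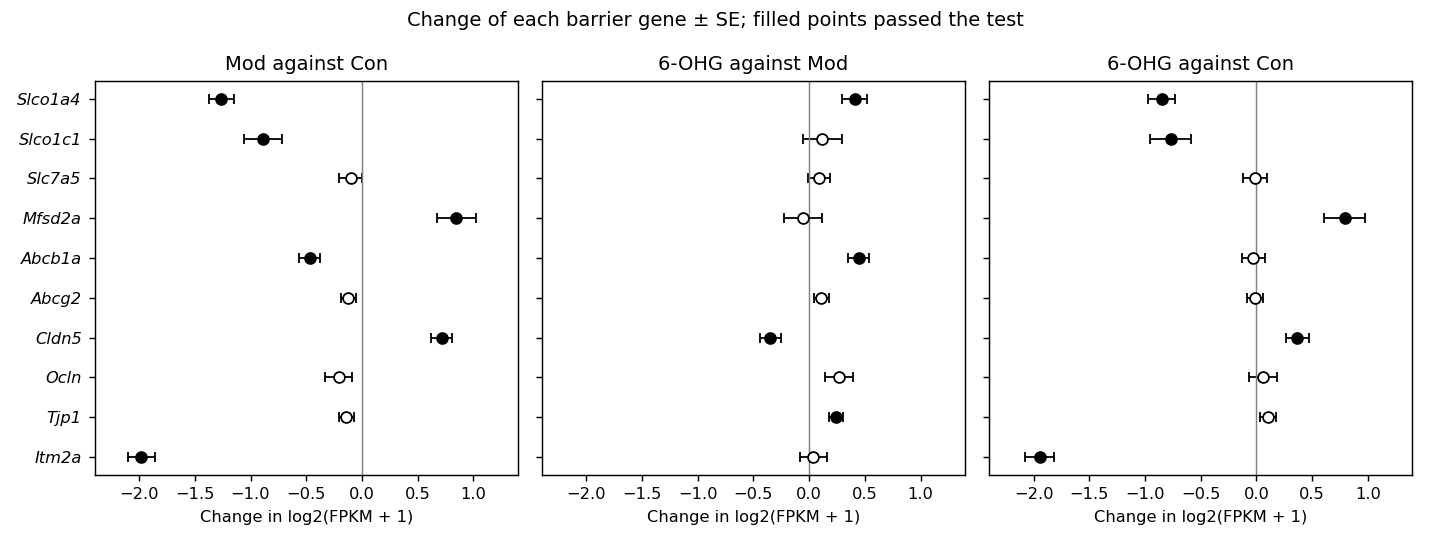
Change in log2(FPKM + 1) of the 10 barrier genes (horizontal axis) in the 3 comparisons, with bars for the SE, where filled points passed the test. Itm2a lies at -1.98 for Mod against Con, 0.04 for 6-OHG against Mod and -1.95 for 6-OHG against Con.

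In the other lists the calls between 6-OHG and Mod are to be read against the 15.3% of all tested genes called. They come from the fit without the length and GC correction, and these genes were not followed through the alternatives. Over all tested genes, that correction took the calls from 2131 to 1012. Of the 13 further carriers 1 rose, Slc7a1 (0.33), and of the 15 junction genes 1, Afdn (0.24). In the vesicle list Lrp1 (0.23) and Insr (0.19) rose, and in the Wnt list the receptor genes Lrp6 (0.25) and Fzd4 (0.34) rose. Of 4 efflux genes 1 rose, Abca1 (0.38). Of 20 endothelial markers 1 was called, Egfl7, a secreted factor of endothelium, which fell from 9.62 ± 0.600 to 6.27 ± 1.12 FPKM (-0.56).

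Exposure with 6-OHG was set against the normal condition in the third comparison, which shares libraries with both others. Of the 10 genes 2 were called higher and 3 lower, against 16.3% and 14.4% of all tested genes (30.7% in either direction). Itm2a (-1.95, SE 0.13, adjusted p = 1.72e-06 in limma), Slco1a4 (-0.85, 0.000293) and Slco1c1 (-0.77, 0.00712) were lower than in Con, and Mfsd2a (0.79, 0.00611) and Cldn5 (0.37, 0.0163) were higher. Itm2a was 4.22 times, Slco1a4 1.99 times and Slco1c1 1.78 times lower by mean. Every 6-OHG library lay beyond every Con library for each of these genes except Cldn5, whose 6-OHG replicate 4 (18.9 FPKM) was below Con replicate 2 (19.0 FPKM), that is for 4 of the 10 genes, against 28.1% of all tested genes. The call of Cldn5 ended when only the compared groups were fitted (adjusted p = 0.0526 in limma). Abcb1a stood at 4.85 ± 0.665 (SD, n = 4) with 6-OHG and 4.94 ± 0.412 (SD, n = 4) in Con, with a log2 change of -0.03 and a 95% interval of -0.25 to 0.19. Its copy Abcb1b was higher than in Con in the fit without the filter (log2 change 0.41, adjusted p = 0.0155 in limma). Tjp1 (0.10, 95% interval -0.05 to 0.25), Ocln (0.06, -0.22 to 0.34), Abcg2 (-0.01, -0.16 to 0.14) and Slc7a5 (-0.01, -0.24 to 0.22) did not pass either.

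The spread within groups differed among the genes. The SD was 6.23% to 17.9% of the mean over the 10 genes in Con, 4.85% to 30.1% in Mod and 3.09% to 32.5% in 6-OHG. Slco1c1 (32.5%) and Mfsd2a (30.6%) were the most uneven with 6-OHG, Ocln (30.1%) in Mod and Slco1c1 (17.9%) in Con.

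For each gene called in Mod against Con, the 3 tested genes with the most similar profile were found by the root mean square difference between log2 values centred over the 13 libraries. For Itm2a these were Cxcl12 (0.37), Pltp (0.44) and Slco1a4 (0.48), for Slco1a4 they were Tek (0.21), Idi1 (0.22) and Prom1 (0.22), and for Slco1c1 Tek (0.18), Adam19 (0.19) and Synj2 (0.20). Cxcl12, a chemokine gene, stood at 8.68 ± 1.53 FPKM in Con, 2.68 ± 0.227 in Mod and 2.62 ± 0.460 with 6-OHG. Tek stood at 3.07 ± 0.421, 1.12 ± 0.168 and 1.505 ± 0.411 FPKM. For Mfsd2a the nearest were Gjb6 (0.19), Slc2a1 (0.19) and Htra1 (0.20), for Cldn5 Rsrp1 (0.11), Tpi-rs11 (0.11) and Prss35 (0.12), and for Abcb1a Ankrd52 (0.11), Mgat5 (0.12) and Mtmr9 (0.13). Since the libraries fall into 3 groups, a shared difference between groups is enough for a small distance.

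By GENCODE M21 on GRCm38 all 10 genes are protein-coding. Itm2a (ENSMUSG00000031239) lies on chromosome X from 107397099 to 107403376, Slco1a4 (ENSMUSG00000030237) and Slco1c1 (ENSMUSG00000030235) on chromosome 6 from 141805440 to 141856199 and from 141524368 to 141570177. Cldn5 (ENSMUSG00000041378) lies on chromosome 16 from 18776847 to 18778262, Mfsd2a (ENSMUSG00000028655) on chromosome 4 from 122946850 to 122961188, and Abcb1a (ENSMUSG00000040584) on chromosome 5 from 8660077 to 8748575. Predicted loci overlap Abcb1a, Slc7a5 and Tjp1, each with at least 1 on the opposite strand, and with no strand setting stated their reads cannot be told apart.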

How the data were processed

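RNA-seq of 13 brain libraries was analysed. The deposited values are FPKM per gene, made by the authors. Per the submitters' processing notes reads were handled on GRCm38 (mm10) with tools that include the aligner HISAT2 2.2.1, the trimmer cutadapt 1.9, and, for counting or assembly, featureCounts 1.5.0-p3 and StringTie 2.1.6. Which of them made the FPKM, and the strand setting, are not given in the sources used here. Most low values were not whole multiples of 1 step, so no count test was run. At the best step of each library 10.4% to 16.2% of values lay within 0.01 of a multiple. The median over all steps tried was 1.6% to 1.77%, so part of the values may follow a step. The 3 comparisons were fitted with limma 3.58.1 in R 4.3.3 on log2(FPKM + 1), with 1 mean per group over all libraries, empirical Bayes with a trend, genes of mean at least 1 FPKM, and Benjamini-Hochberg adjustment over 13905 genes. Figures used matplotlib 3.10.9. On simulated data made for Mod against Con over 13905 genes, 76% of genes changed by 0.5, 80% by -0.5 and 92% by 1 (log2) were recovered. For changes of 0.5 and -0.5 it was 66% and 82% in 6-OHG against Mod, and 64% and 66% in 6-OHG against Con. The changes were placed only in genes well above the filter, at levels that Ocln and Abcg2 did not reach, so these rates do not cover them. Few genes were changed, and the simulated spread was independent between genes, without a length or GC trend. The rates therefore need not hold in the real comparisons. Alternatives changed the pseudocount, filter, scaling, moderation, weights, samples, pairing, length and GC trend, or left out libraries. Without both libraries least like their groups is an alternative chosen after seeing the data. The 10 genes and the 14 other lists were chosen with earlier results of these data known. Of each list, up to 5 genes with the smallest p per comparison could be named, and for each of the 10 called in Mod against Con the 3 nearest profiles. Close copies and partners of the 10 were named for that relation. GENCODE M21 gave coordinates, exon length and GC content, and RefSeq gave upstream windows. The result of 1 gene is not reported here by name.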

Additional observations from a re-analysis of the deposited data

Results flagged for a closer look

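Among 57 sets of values within a group, 4 held 1 library far from the rest, and chance alone gives about 1 in 20. Slco1a4 in 6-OHG replicate 4 was 3.17 FPKM, while the other 3 libraries lay between 4.47 and 4.60. The summed choroid plexus markers were 703.7 FPKM in Con replicate 2, against 285.7 to 341.1 in the other Con libraries, whereas Mod replicate 4 had 49.3 and its group was otherwise at 222.2 to 255.6. Ttr alone gave 685.7 FPKM of the former and 43.5 of the latter. The summed liver transcripts reached 40.2 FPKM in Mod replicate 3, with 0.454 to 1.39 in the rest of that group.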

How the results depend on the processing

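Of the 10 genes, the count called in Mod against Con was 6 under every alternative run except a filter at 5 FPKM, which tested 6 of the 10 and called 4. In 6-OHG against Mod the count of 4 became 1 without a filter on low values, 2 with the filter at 5 FPKM, 2 without both libraries least like their groups, and 1 to 4 with each library left out. With the length and GC trend removed it was 0, and 2 genes had an unadjusted p under 0.05 in limma. There was no sign that the replicate numbers pair the libraries: same-numbered libraries correlated at -0.483 to 0.346 over 12 pairs, and 4 of 24 searches matched a library best with its own number. With so few libraries per group, such correlations cannot show that pairing was absent. With the number as a replicate block the count in 6-OHG against Mod was 1, Tjp1, and the calls of Abcb1a, Slco1a4 and Cldn5 ended. The count was 0 with the length and GC trend removed as well, where 3 (Abcb1a, Slco1a4 and Tjp1) had an unadjusted p under 0.05 in limma. In 6-OHG against Con the count of 5 was 4 with the filter at 5 FPKM and 4 with the compared groups fitted alone.

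Changes of sign were confined, among the 10 genes, to values that did not pass. In 6-OHG against Mod, Mfsd2a was 0.0411 with equal sums, 0.0678 with the trend removed, 0.0882 with trend and block, and -0.176 to 0.102 with a library left out. Abcg2 was -0.0359 with the trend removed and -0.0376 with trend and block. Itm2a was -0.0203 with sample weights, -0.0366 with the block, -0.0175 without both libraries, and -0.0366 to 0.121 with a library left out. Slco1c1 was -0.0485 to 0.269 with a library left out, the lowest without 6-OHG replicate 3. In 6-OHG against Con, Slc7a5 was 0.0163 with equal sums, 0.0132 after quantile normalization, 0.0553 with the trend removed with and without the block, and -0.0939 to 0.0537 with a library left out. Abcg2 was 0.0051 with equal sums and -0.0360 to 0.0223 with a library left out, Abcb1a -0.0804 to 0.0450 with a library left out, and Ocln -0.0050 to 0.0999 with a library left out and -0.0069 without both libraries.

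Over all tested genes, 3304 were called in Mod against Con, and 2061 with the filter at 5 FPKM, 2039 with the block and 2086 with trend and block. For 6-OHG against Mod, 2131 became 846 with the block, 1012 with the trend removed, 26 with both and 1349 without 6-OHG replicate 4. For 6-OHG against Con, 4268 became 2663 with the filter at 5 FPKM. The cause of these differences was not tested, apart from the fewer genes that the stricter filter tests. Depth is unknown, so counting error cannot be given.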

Other observations

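Markers of other cells of the vessel wall also went both ways between Con and Mod. Of 13 pericyte and mural markers 11 were tested, 5 rose and 3 fell, with a median log2 change of 0.15. These counts, and the astrocyte calls below, are to be read against 14.0% of all tested genes called higher and 9.81% called lower. The smooth muscle marker Tagln fell by 0.61, while the pericyte genes Abcc9, Kcnj8 and Ndufa4l2 rose by 0.65, 0.64 and 0.84. The pericyte gene Cspg4, named after its values were seen, fell by 0.28. Among 12 astrocyte markers the connexin gene Gjb6 rose by 0.91, and the water channel gene Aqp4 and the connexin gene Gja1 fell by 0.92 and 0.46.

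In the same comparison 1 of 12 oligodendrocyte markers, 2 of 12 microglia markers and 2 of 12 neuron markers fell, against 9.81% of all tested genes, as did all 5 tested of 16 liver transcripts. In 6-OHG against Con, where 14.4% of all tested genes were lower, 7 of 12 microglia, 4 of 12 oligodendrocyte and 2 of 12 neuron markers were lower. The microglia markers summed to 118.4 to 133.6 FPKM in Con and 81.0 to 111.6 with 6-OHG. The neuron markers summed to 1066 to 1135 FPKM in Con and 948 to 998 in Mod. The 5 blood cell transcripts did not pass in Mod against Con, with a median log2 change of 0.05. In 6-OHG against Con 1 of them fell, with a median of -1.35.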
